A study of Mus musculus with 24 samples.

Results

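Serum exosome microRNA (miRNA) of mice given toosendanin (TSN) for 21 days was compared with that of mice given vehicle for the same time, on 8 of the 24 arrays of the study. TSN is a triterpenoid of Melia bark and fruit with known hepatotoxicity. The arrays were chosen by their labels, 4 TSN and 4 vehicle control samples of day 21, and all 1881 miRNAs on the array were considered. The TSN mice received 80 mg/kg. All mice were male BALB/c animals, an inbred albino strain, and serum was drawn 1 day after the last dose. The remaining 16 arrays held TSN and vehicle groups of days 3 and 9, again with 4 samples each. The labels give no age and do not state whether 1 animal or several went into a sample. The p-values therefore cover only the spread among these samples, which may be technical, and every value has n = 4 in each group.

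A miRNA is a short RNA that guides an Argonaute protein to messenger RNAs, mainly through its seed, the stretch near its 5′ end, and lowers their translation and stability. Each hairpin precursor can give a mature strand from its 5′ arm (5p) and from its 3′ arm (3p), and miRNAs with the same seed share many targets. Exosomes are small vesicles that cells release. Those in serum come mainly from blood cells, platelets and endothelium, with a share from organs such as the liver, so that hepatocyte miRNAs in serum are followed as markers of liver injury.

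The mature sequences below, from RefSeq (GRCm38.p6), are those of the miRNAs with the largest rises among those measured on all 8 arrays. They are written 5′ to 3′ with the seed, bases 2 to 8, in capitals. No sequence of miR-3960 or miR-7042-5p, which also belong to this group, is printed here.
miR-494-3p, chr12:109715367-109715388, plus strand: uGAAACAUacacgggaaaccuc
miR-5100, chr11:60728698-60728718, plus strand: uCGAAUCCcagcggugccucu
miR-6354, chr1:169019041-169019061, minus strand: uGCCCUGGggaucaggucucu
miR-6366, chr16:18165093-18165114, minus strand: aGCUAAGGggcccggggagcca
miR-2137, chrX:72992113-72992133, plus strand: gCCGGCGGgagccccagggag
miR-7036a-5p, chr5:137296661-137296683, minus strand: aGCGGGGUucgguggggaagaga
miR-710, chr8:64514401-64514422, minus strand: cCAAGUCUuggggagaguugag
miR-6931-5p, chr11:102999896-102999916, minus strand: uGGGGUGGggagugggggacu
miR-3963, chr3:151023839-151023857, minus strand: uGUAUCCCacuucugacac
miR-106b-5p, chr5:138165787-138165807, minus strand: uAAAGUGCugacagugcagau

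The next sequences are those of the largest falls, less miR-140-5p and miR-6957-5p. No 2 of the rising miRNAs above share a seed, whereas miR-221-3p and miR-222-3p do.
miR-7080-3p, chr8:123130147-123130168, plus strand: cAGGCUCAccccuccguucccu
miR-3620-3p, chrX:150547385-150547406, minus strand: cUGCUCAGccccgcccacccca
miR-22-3p, chr11:75463772-75463793, plus strand: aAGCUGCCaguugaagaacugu
miR-222-3p, chrX:19146901-19146923, minus strand: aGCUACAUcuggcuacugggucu
miR-221-3p, chrX:19146307-19146329, minus strand: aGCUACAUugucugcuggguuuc
miR-883a-5p, chrX:66780803-66780824, minus strand: uGCUGAGAgaaguagcaguuac
miR-7084-5p, chr9:22113988-22114008, minus strand: uAGAGGAUagagguagagagu
miR-882, chr12:109682207-109682228, plus strand: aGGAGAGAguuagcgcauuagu
miR-27a-3p, chr8:84208727-84208747, plus strand: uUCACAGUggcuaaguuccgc
miR-300-5p, chr12:109724318-109724339, plus strand: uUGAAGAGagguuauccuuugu
By the RefSeq gene table of the same build, miR-5100 lies within the span of Mief2, miR-7036a-5p within Srrt, miR-106b-5p within Mcm7, miR-3620-3p within Apex2 and miR-7080-3p within Cpne7. That table holds no strand, and exons and introns were not told apart.

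The 2 groups were not hybridised alike. No slide and no scan held both arms, so in every result that follows treatment and slide cannot be told apart. The unscaled 75th percentile over 261 probes detected throughout the study was 1748, 1085, 1500 and 1342 on the TSN arrays, against 81.4, 355, 609 and 182 on the control arrays, a ratio of geometric means of 5.87. The labelling spike-ins, control RNAs added before labelling, were 3.34 times brighter on the TSN arrays (1553 against 464). The hybridisation spike-ins were at 28839 on the TSN arrays and 31937 on the control arrays, a ratio of 0.903. The TSN arrays had 471, 435, 469 and 464 miRNAs well above background, against 184, 311, 351 and 246 on the control arrays. In each of these 4 measures the groups did not overlap (exact two-sided permutation p = 0.0286 for each and after adjustment over 6 array measures, the smallest that 70 allocations allow).

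**Figure D1:**
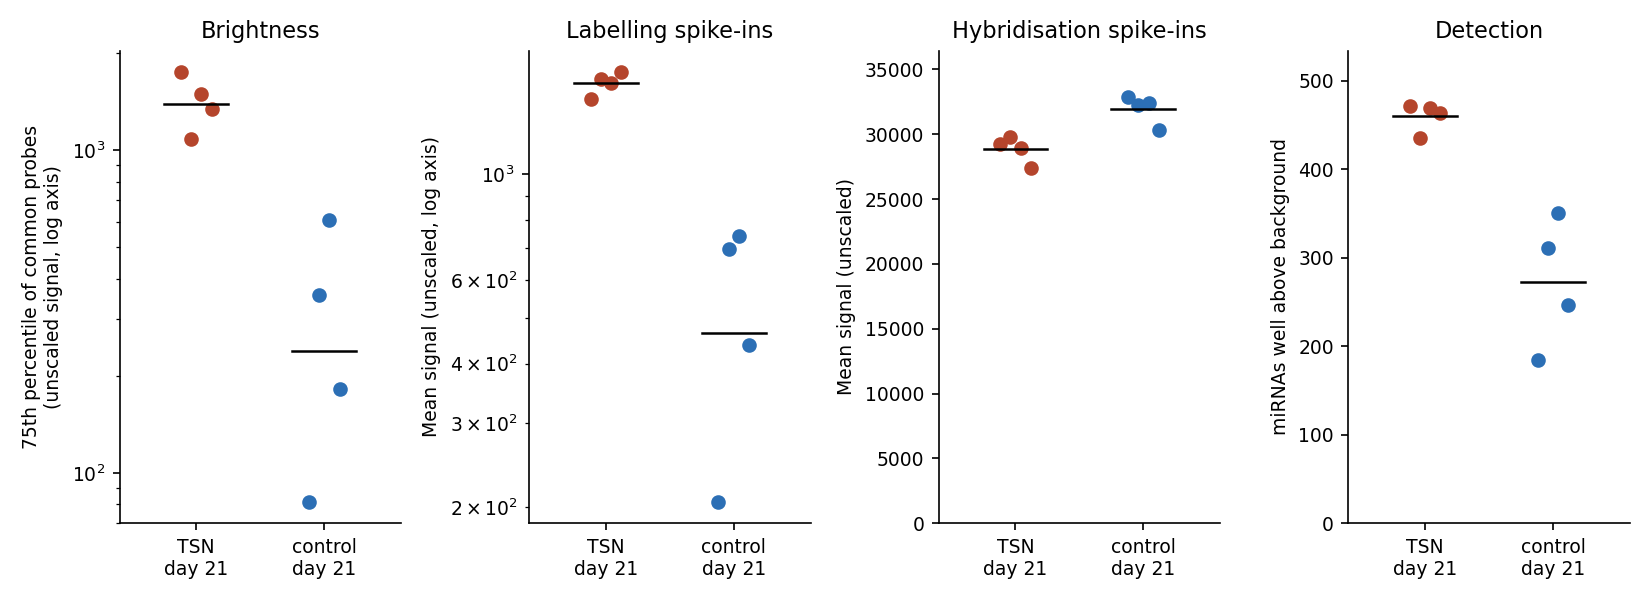
Brightness, spike-in signal and detection of the 8 day 21 arrays, TSN left and control right. Points are arrays and bars are means (geometric for signals); the control arrays lie lower in brightness, labelling spike-ins and detection, between 184 and 351 miRNAs against 435 to 471, and slightly higher in the hybridisation spike-ins.

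A level is given below as log2 of the signal divided by the array's own 75th percentile, which makes each rise or fall one against that array, with a floor at -6.21. A change is the difference of the TSN mean and the control mean on this log2 scale, with its standard error (SE), and a call is an adjusted p under 0.05 in the limma fit over all 24 arrays. Of the 1881 miRNAs, 444 were tested, those that in 1 or more of the 6 groups were well above background on each of the 4 arrays. At day 21, 103 (23.2%) were higher and 96 (21.6%) lower in TSN, together 199 (44.8%), and 245 did not pass. Only 179 were well above background on all 8 day 21 arrays, called measured here, and of these 27 (15.1%) rose, 57 (31.8%) fell and 95 did not pass. A further 243 of the tested miRNAs were well above background on all TSN arrays but not on all control arrays, and 1 the other way round. The 2 groups did not overlap in 77 (43.0%) of the measured miRNAs. Without control replicate 1, the dimmest array, 87 rose and 82 fell among the tested. The split of the calls followed the scaling: 411 rose and 1 fell on the unscaled signals, 415 and 0 with the hybridisation spike-ins, 233 and 13 with the labelling spike-ins, 172 and 51 with quantile normalisation, 92 and 44 with the 75th percentile of all probes, and 17 and 345 with normexp background correction. Most of these settings move the miRNAs clear of the floor alike. Read relative to the median shift of the measured miRNAs, 6 of these rose and 23 fell on the unscaled signals. The counts were 6 and 23 with the hybridisation spike-ins, 14 and 42 with the labelling spike-ins and 26 and 55 with quantile normalisation. They were 13 and 42 with the 75th percentile of all probes, and 35 and 54 with normexp. Over all tested miRNAs, 17 rose and 179 fell on the unscaled signals, 17 and 176 with the hybridisation spike-ins, and 52 and 127 with the labelling spike-ins. There 137 rose and 61 fell with quantile normalisation, 58 and 101 with the 75th percentile of all probes, and 35 and 285 with normexp. A positive shift is also taken from miRNAs at the floor, which can make them falls. Differences between the groups in the number of serum vesicles, in the miRNA per vesicle and in the labelling cannot be told apart in these samples.

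On the unscaled signals nearly every measured miRNA was brighter in TSN. The unscaled change was positive for 177 of the 179, with a median of 2.44 (5.43-fold), and it ranged from -0.22 to 4.99. Of the 57 miRNAs that fell after scaling, 55 had a higher unscaled signal in TSN. A fall here is therefore a signal that was brighter by less than the array as a whole, with the exceptions miR-3620-3p and miR-7080-3p.

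The largest rise among the measured miRNAs was that of miR-494-3p, a miRNA of the imprinted Dlk1-Dio3 region. It stood at 3.74, 3.17, 3.41 and 3.83 on the TSN arrays, against 0.82, 0.97, 1.61 and 0.99 on the control arrays. Every TSN array lay more than 1 unit above every control array, and the change was 2.44 (SE 0.291, limma adjusted p = 1.58e-06). miR-5100 was at 3.15, 3.60, 3.37 and 3.42 in TSN, against 1.41, 1.55, 1.11 and 1.18 in the controls. Its groups were tight and far apart, and the change was 2.07 (SE 0.186, adjusted p = 3.92e-08). miR-6354 had 0.18, -0.47, -0.35 and -0.16 on the TSN arrays and -2.09, -2.07, -2.10 and -2.53 on the control arrays, a change of 2.00 (SE 0.216, adjusted p = 4.32e-07). miR-6366 had 2.11, 2.54, 2.38 and 2.29 on the TSN arrays and 0.48, 0.56, 0.12 and 0.58 on the control arrays, a change of 1.90 (SE 0.191, adjusted p = 1.59e-07). The next rise was 1.34, that of miR-2137.

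miR-2137 was at 2.49 ± 0.086 in TSN and 1.14 ± 0.109 in the controls (mean ± SD). miR-3960 rose by 1.28, with a mean of 3.36 ± 0.232 in TSN against 2.09 ± 0.206 in the controls, and miR-3963 was at 4.79 ± 0.201 in TSN and 3.66 ± 0.143 in the controls. miR-7036a-5p (1.22), miR-710 (1.17), miR-6931-5p (1.15) and miR-7042-5p (1.06) rose too, though miR-710 turned to -5.34 with the total gene signal of the software and lost its call with normexp. The 12th was miR-106b-5p, the miRNA named in the study's title, which is made from an intron of the replication gene Mcm7. It stood at 0.54, 0.36, 0.00 and 0.30 on the TSN arrays, against -0.69, -0.94, -0.93 and -0.45 on the control arrays. The lowest TSN array lay above the highest control array, and the change was 1.05 (SE 0.189, adjusted p = 0.000144). Read relative to the median shift, the calls of miR-106b-5p, miR-3963, miR-6931-5p, miR-7036a-5p, miR-7042-5p and miR-710 were lost on the unscaled signals and with the hybridisation spike-ins, where the adjusted p of miR-106b-5p was 0.0881 and 0.0865.

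**Figure D2:**
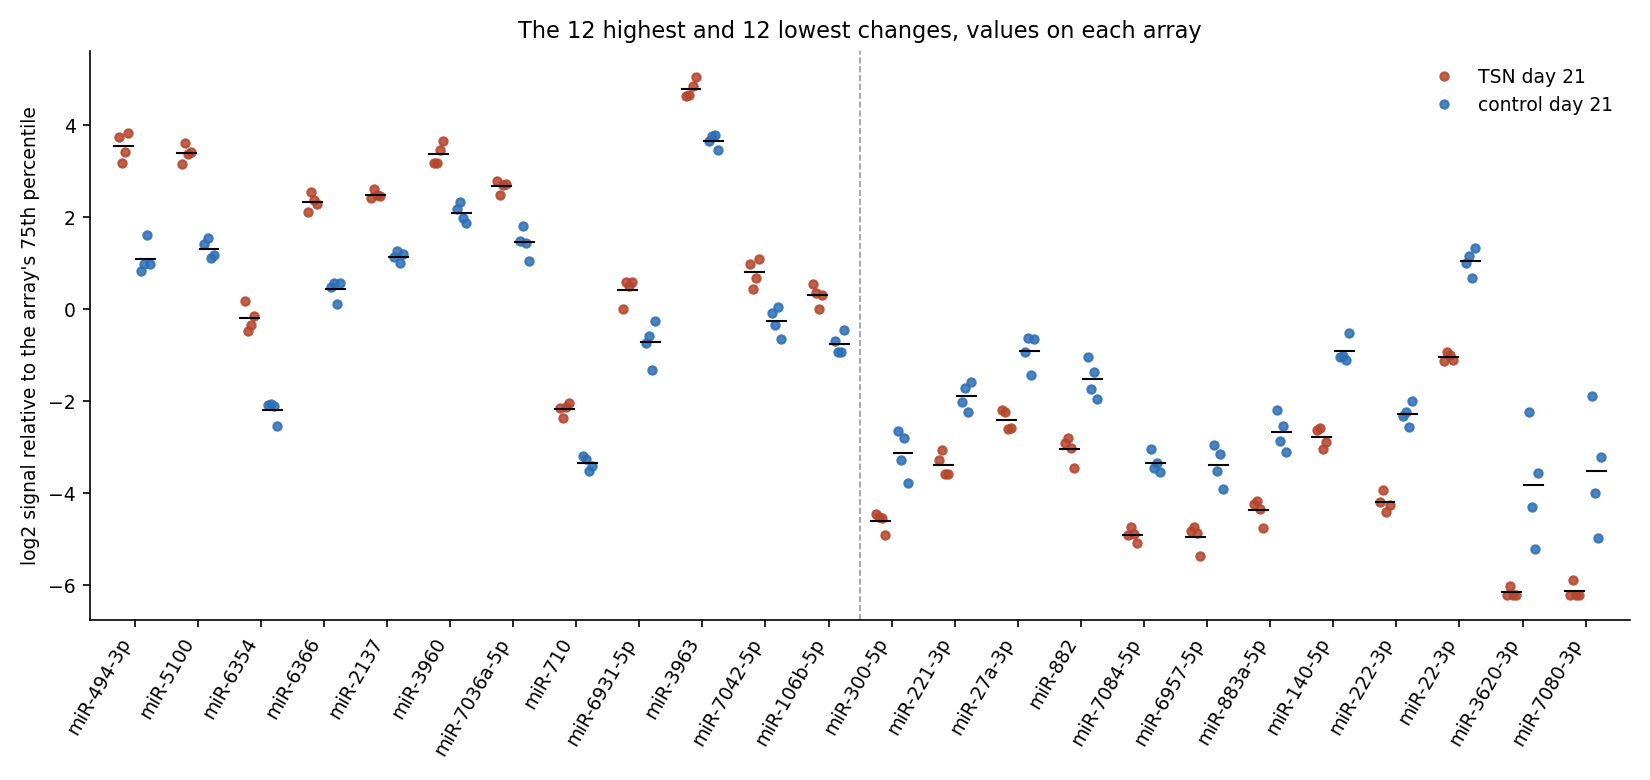
Level on each array (log2 signal relative to the array's 75th percentile) of the 12 miRNAs with the largest rises and the 12 with the largest falls among those measured on all 8 arrays with groups that did not overlap. TSN points are left of control points and bars are means; miR-7080-3p and miR-3620-3p lie at or near the floor of -6.21 in TSN and spread widely in the controls.

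Among the falls, miR-22-3p, a broadly expressed miRNA studied in heart and muscle, was between -1.12 and -0.92 on the TSN arrays, against 0.99, 1.15, 0.68 and 1.33 on the control arrays. The groups were separated by more than 1 unit, and the change was -2.08 (SE 0.188, adjusted p = 3.92e-08). miR-140-5p, best known from cartilage, was at -2.62, -2.58, -3.04 and -2.89 in TSN, against -1.03, -1.01, -1.11 and -0.53 in the controls. This fall of 1.86 had the smallest SE of the 12 largest falls (0.139, adjusted p = 4.93e-09). The other arm, miR-140-3p, fell less, with a change of -0.51 (SE 0.1, adjusted p = 0.000353), and its call was lost in 6 of 15 alternative settings. miR-222-3p was at -4.18, -3.93, -4.42 and -4.27 in TSN, against -2.33, -2.23, -2.57 and -1.99 in the controls (change -1.92, adjusted p = 1.47e-08). miR-221-3p, its neighbour on chromosome X with the same seed, was at -3.28, -3.07, -3.59 and -3.59 in TSN, against -2.03, -1.71, -2.24 and -1.59 in the controls (change -1.49, adjusted p = 1.64e-06). Both are known from endothelium and smooth muscle, and neither overlapped between the groups.

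The largest fitted falls, at -2.61 for miR-7080-3p and -2.33 for miR-3620-3p, rest on signals that did not follow the brightness of the array. miR-7080-3p was at -6.21, -5.89, -6.21 and -6.21 on the TSN arrays, of which 3 were at the floor, against -1.89, -4.00, -4.97 and -3.21 on the control arrays. Its highest control value was on the dimmest control array and its lowest on the brightest. The unscaled ratio of TSN to control was 0.859 for miR-7080-3p. It was 0.93 for miR-3620-3p, and over the control arrays of the study the slope of the unscaled signal on brightness was -0.03 for both, against a median of 0.995 over the measured miRNAs. miR-883a-5p (-1.70), miR-6957-5p (-1.56), miR-7084-5p (-1.56), miR-882 (-1.52) and miR-300-5p (-1.48) did follow brightness (slopes 0.87 to 0.92), and their unscaled signals were 1.80 to 2.10 times higher in TSN. The calls of miR-882 (-0.19) and miR-300-5p (-0.42) were lost in the authors' deposited values, and miR-7080-3p turned to 0.41 with total gene signal. miR-882 and miR-300-5p lie in the same stretch of chromosome 12 as miR-494-3p, which changed the opposite way.

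Other miRNAs were seen in TSN and in no control array. Well above background on all 4 TSN arrays and on none of the controls were 78 tested miRNAs, of which 29 were called higher, and 8 of these had a bound above 1-fold. The 78 passed the filter on their TSN arrays and were picked by their absence on the dimmer control arrays. The count of 29, beside 23.2% higher over all tested miRNAs, is therefore a description only. miR-3968 was at least 4.44-fold higher in TSN, miR-6402 at least 3.15-fold, miR-8090 at least 2.88-fold, miR-6934-5p at least 1.91-fold, miR-23a-5p at least 1.75-fold and miR-8093 at least 1.33-fold. With normexp background correction the changes of miR-6402, miR-8090, miR-6934-5p, miR-23a-5p and miR-8093 turned negative, and the call of miR-3968 was lost. A bound sets the TSN mean against the lowest signal well above background on each control array, so it is low where the control arrays are dim. miR-212-3p, a neuronal miRNA that is also induced by activity in other cells, exceeded background on 2 of 4 control arrays and stood at -2.69, -2.59, -2.45 and -2.52 in TSN, against -5.07, -4.48, -4.88 and -4.64 in the controls (change 2.20, adjusted p = 2.53e-08). The call of miR-212-3p was lost with normexp background correction and with total gene signal. Its cluster partner miR-132-3p was below the filter. The calls of the 6 miRNAs with a bound given here and of the 24 largest rises and falls held with each of the 8 arrays left out in turn.

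In the leukocyte group, which holds miRNAs of myeloid cells and lymphocytes, 4 of 6 tested members fell and 0 rose. The shares to set beside this and the group counts that follow are 21.6% lower and 23.2% higher over all tested miRNAs. Over all measured miRNAs they are 31.8% lower and 15.1% higher. The median change of the group was -0.88, beside 0.01 over all tested miRNAs. miR-223-3p, the main miRNA of neutrophils and monocytes, was at 0.40, 0.69, 0.19 and 0.10 on the TSN arrays, against 1.39, 1.50, 1.04 and 1.82 on the control arrays. The groups did not overlap (change -1.09, adjusted p = 4.71e-05). Read relative to the median shift, the call of miR-223-3p was lost on the unscaled signals and with the hybridisation spike-ins. miR-142a-3p, made in all blood cell lineages, fell by 0.94 with overlapping groups, while its other arm miR-142a-5p was at -2.97 ± 0.226 in TSN and -2.82 ± 0.423 in the controls and did not pass. miR-146a-5p, a feedback inhibitor of inflammatory signalling, and miR-150-5p, of mature lymphocytes, fell by 0.89 and 0.88, each measured on 3 of 4 control arrays. The calls of miR-142a-3p and miR-150-5p were lost without control replicate 4 (adjusted p = 0.0579 and 0.0547) and 2 of 6 then fell; miR-142a-3p was also lost without TSN replicate 1, and miR-150-5p without TSN replicate 3 or 4. miR-155-5p was below the filter. The summed level of the 6, on the linear scale, was 2.08 to 3.08 times the 75th percentile in TSN and 3.33 to 7.23 times it in the controls.

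In the endothelial and smooth muscle group all 6 tested members passed, 4 lower and 2 higher. Beside miR-221-3p and miR-222-3p, the endothelial miR-126a-3p (-0.53, adjusted p = 0.0252) and miR-126a-5p (-0.73, adjusted p = 0.0143) fell, the second measured on 2 of 4 control arrays. miR-126a-3p was lost without TSN replicate 3 or 4 or control replicate 2 or 4, and miR-126a-5p without TSN replicate 3, so that 2 of 6 fell without TSN replicate 3. miR-143-3p and miR-145a-5p, made together in smooth muscle, rose. miR-143-3p was at -2.72, -2.90, -3.46 and -3.90 in TSN, against -4.13, -3.80, -3.84 and -4.49 in the controls (change 0.82, adjusted p = 0.0469), a call lost in 6 of the 8 fits that left out 1 array (all but those without TSN replicate 4 and control replicate 2). miR-145a-5p was above background on no control array and had a bound of 0.966-fold, so its rise has no size.

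In the red cell group 3 of 6 tested members fell and 0 rose. Of its 4 measured members 1 fell, beside 31.8% over all measured miRNAs. miR-451a, the main miRNA of red cells, was at 5.82, 5.77, 5.21 and 5.73 in TSN, against 5.58, 5.52, 5.67 and 6.41 in the controls, and its groups overlapped (change -0.16, adjusted p = 0.65; 1.67 in the authors' deposited values). The minor strands miR-144-5p (-1.07), miR-486a-3p (-1.61) and miR-486b-3p (-1.54) fell, while the major strands miR-144-3p (0.23) and miR-486a-5p (-0.48, adjusted p = 0.0772) did not pass. Of these falls only that of miR-144-5p was measured on all 8 arrays. Its call was lost on the unscaled signals and with the hybridisation spike-ins, both read relative to the median shift. Quantile normalisation lost miR-486a-3p and miR-486b-3p, and total gene signal lost miR-144-5p and miR-486b-3p. The summed level of the 6 was 40.4 to 61.2 in TSN and 50.5 to 90.8 in the controls. Of 5 platelet miRNAs 2 fell, miR-223-3p and miR-24-3p, and their summed level was 2.42 to 3.38 in TSN and 3.28 to 5.89 in the controls.

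Hepatocyte miRNAs did not move together. miR-122-5p, the most abundant miRNA of hepatocytes, was at -3.50, -3.05, -2.86 and -3.37 in TSN, against -3.18, -2.75, -3.31 and -1.55 in the controls. The change was -0.50 (SE 0.806, adjusted p = 0.696), with control replicate 4 far above the other control arrays. miR-192-5p did not pass either (-0.40, adjusted p = 0.587). miR-148a-3p rose (0.69, adjusted p = 0.00481, 3 of 4 control arrays measured) and miR-101b-3p, at the floor on every TSN array, fell (-0.77, 1 of 4 control arrays measured). miR-194-5p, miR-802-5p and the minor strand miR-122-3p were below the filter. The summed level of the 5 tested members was 0.513 to 0.702 in TSN and 0.468 to 1.03 in the controls. In striated muscle 0 of 4 tested members passed, and their summed level was 0.245 to 0.387 in TSN and 0.134 to 0.318 in the controls. miR-378a-3p passed as higher without TSN replicate 2 or control replicate 3 (lowest limma adjusted p = 0.0115). Its change was 0.78 to 1.48 over the fits that left out 1 array. miR-133b-3p was at -4.73 ± 0.592 in TSN and -5.26 ± 0.732 in the controls, miR-1a-3p at -5.31 ± 0.602 in TSN and -4.52 ± 0.626 in the controls, and miR-206-3p, miR-208a-3p, miR-208b-3p and miR-499-5p were below the filter. The part of these blood cell miRNAs in the other results was not tested.

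**Figure D3:**
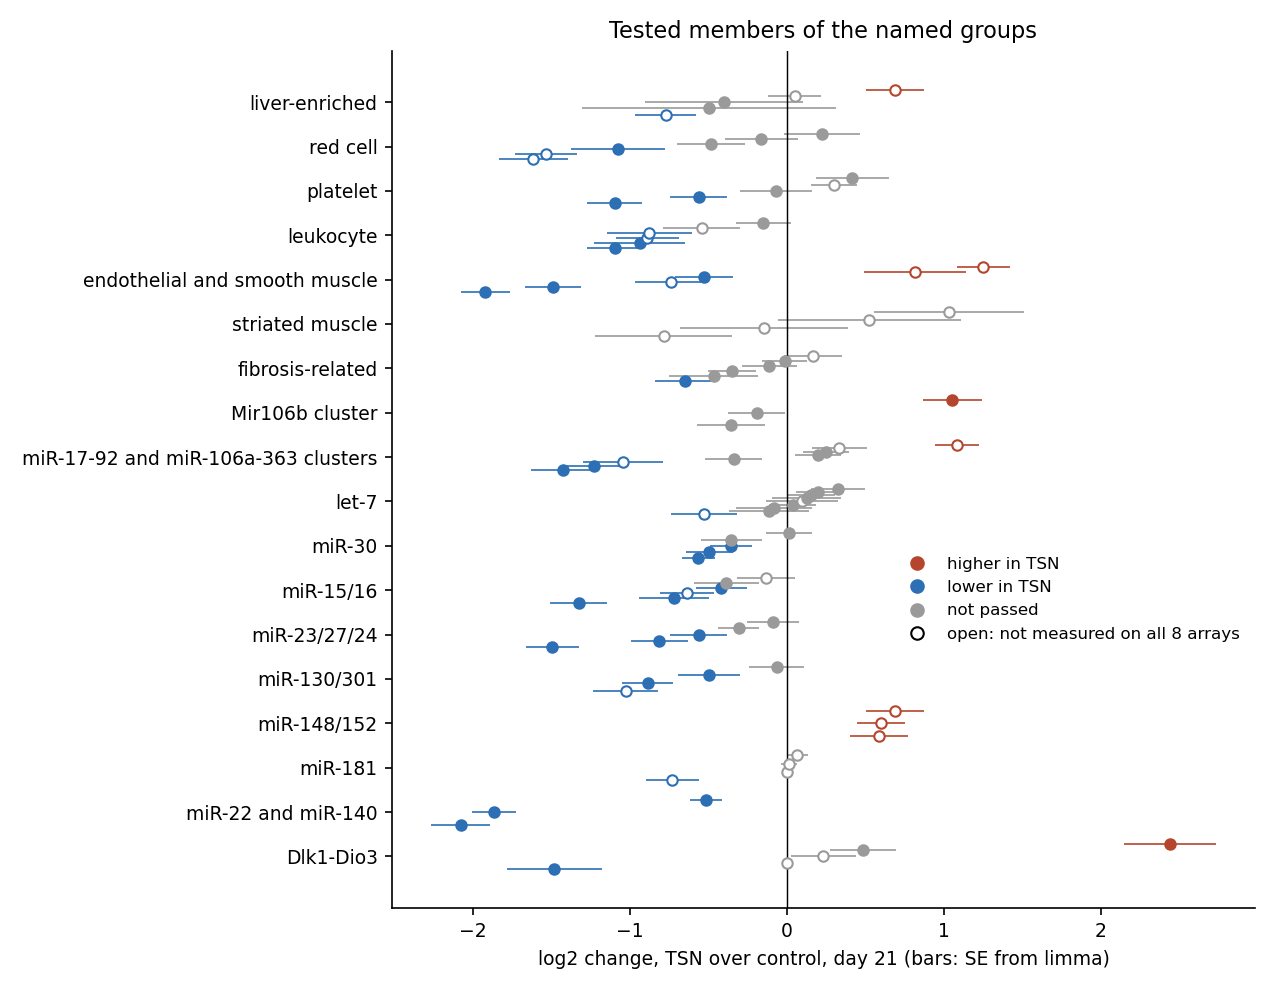
Change at day 21 (log2, TSN over control, bars are SE from limma) of the tested members of each group of miRNAs. Filled points were measured on all 8 arrays and open points were not; the members of the leukocyte, miR-15/16, miR-23/27/24, miR-30 and miR-130 groups lie at or below 0, apart from miR-30c-5p at 0.01, and those of miR-148 lie above it.

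Members of a seed family often differed in size but, among the measured miRNAs, no seed held both a rise and a fall. Of 156 measured miRNAs with a RefSeq sequence, 43 shared their seed with another, in 15 seeds. Calls were held by 9 of these seeds, all one way within a seed, and the other seeds held none. The seed of miR-106b-5p and that of miR-192-5p and miR-215-5p held only 1 call each, which cannot disagree. Falls outnumbered rises among all measured miRNAs, and whether members of a seed ran together beyond that was not tested. The seed of miR-106b-5p is shown with its other tested members.
miR-17-5p, chr14:115043684-115043706, plus strand: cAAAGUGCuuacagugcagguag
miR-20a-5p, chr14:115044183-115044205, plus strand: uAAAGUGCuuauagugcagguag
miR-20b-5p, chrX:52742159-52742181, minus strand: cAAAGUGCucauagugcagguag
miR-93-5p, chr5:138165574-138165596, minus strand: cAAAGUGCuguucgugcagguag
miR-17-5p, which exceeded background on 3 of 4 control arrays, was at -3.32, -3.32, -3.55 and -3.31 in TSN, against -4.27, -4.46, -4.63 and -4.48 in the controls. Its change of 1.08 (SE 0.142, adjusted p = 4.16e-06) was close to that of miR-106b-5p, and turned to -0.43 with normexp background correction. The probe of miR-17-5p also matches miR-106a-5p, which is not on the array under its own name. The signal cannot be assigned to miR-17-5p alone. miR-20a-5p (0.25, SE 0.146), miR-20b-5p (0.20, SE 0.147) and miR-93-5p (-0.19, SE 0.181) did not pass and overlapped between the groups. miR-93-5p and miR-25-3p (-0.36, SE 0.217, adjusted p = 0.205) are cut from the same transcript as miR-106b-5p.

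The clusters miR-17-92 and miR-106a-363 encode miRNAs that drive proliferation, and their 8 tested members went apart. Only miR-17-5p rose. miR-19a-3p, whose seed differs from that of miR-17-5p, was at -1.96, -2.24, -2.60 and -2.66 in TSN, against -0.90, -0.92, -1.30 and -0.63 in the controls (change -1.43, adjusted p = 1.05e-05). miR-19b-3p, with the seed of miR-19a-3p, fell by 1.23 (SE 0.193, adjusted p = 3.66e-05). miR-17-3p, the other arm of the hairpin of miR-17-5p, fell by 1.04 (SE 0.254, adjusted p = 0.00238). miR-18a-5p, miR-20a-5p, miR-20b-5p and miR-92a-3p did not pass, with changes of 0.33, 0.25, 0.20 and -0.34.

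The miR-15/16 family, which restrains the cell cycle, shares the seed shown next.
miR-16-5p: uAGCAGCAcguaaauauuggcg
miR-15a-5p, chr14:61632075-61632096, minus strand: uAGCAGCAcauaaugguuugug
miR-15b-5p, chr3:69009775-69009796, plus strand: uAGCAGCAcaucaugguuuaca
miR-195a-5p, chr11:70235062-70235082, plus strand: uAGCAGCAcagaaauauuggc
miR-497a-5p, chr11:70234730-70234751, plus strand: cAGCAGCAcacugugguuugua
Of the 6 tested members 4 fell and 0 rose. miR-16-5p, made at loci on chromosomes 3 and 14, was at 0.84, 0.55, 0.26 and 0.55 in TSN, against 1.87, 1.71, 1.82 and 2.12 in the controls, with no overlap (change -1.33, adjusted p = 6.8e-06). miR-15b-5p, cut from the same chromosome 3 transcript as 1 copy of miR-16-5p, fell by 0.42 with overlapping groups (adjusted p = 0.0441). miR-497a-5p (-0.72) and miR-195a-5p (-0.64), neighbours on chromosome 11, fell, and miR-15a-5p (-0.38) and miR-322-5p (-0.13) did not pass. miR-15b-5p was lost without TSN replicate 3 or 4 or control replicate 1 or 4 (adjusted p up to 0.176) and miR-497a-5p without TSN replicate 4 or control replicate 1 or 2, so that 2 of 6 fell without TSN replicate 4 or control replicate 1.

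In the miR-23/27/24 clusters, known from endothelium and lipid metabolism, 3 of 5 members fell, all 5 of them measured. miR-27a-3p was at -2.20, -2.24, -2.62 and -2.58 in TSN, against -0.94, -0.64, -1.43 and -0.66 in the controls, and its groups did not overlap (change -1.49, SE 0.17, adjusted p = 8.98e-07). miR-27b-3p, of the paralogous cluster and with the same seed, fell by 0.81 (adjusted p = 0.00116), and miR-24-3p, made by both clusters, by 0.56 (adjusted p = 0.016, lost without TSN replicate 4 or control replicate 4, which left 2 of 5). miR-23a-3p, in the same cluster as miR-27a-3p, was at 2.11, 2.45, 1.98 and 2.05 in TSN, against 2.18, 2.46, 1.79 and 2.51 in the controls, and its change of -0.09 (SE 0.167) did not pass. Within 1 cluster the changes thus ran from -1.49 to -0.09, besides the rise of the minor strand miR-23a-5p.

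The family of miR-130 and miR-301, induced by hypoxia in human endothelium, had 3 of 4 members lower. miR-301a-3p (-0.89, adjusted p = 0.000209) and miR-301b-3p (-1.03, 2 of 4 control arrays measured) fell without overlap. The fall of miR-301b-3p was lost with quantile normalisation, the authors' deposited values and the mean of the probes, and turned to 0.41 with total gene signal. miR-130a-3p (-0.50, adjusted p = 0.0477) overlapped and was lost when any 1 array but TSN replicate 2 or control replicate 3 was left out, and miR-130b-3p (-0.07) did not pass. Of 5 miR-30 members, a family that is abundant in epithelium, miR-30d-5p (-0.56, adjusted p = 0.000186), miR-30e-5p (-0.49) and miR-30a-5p (-0.36) fell. miR-30d-5p was at -3.40, -3.30, -3.42 and -3.42 in TSN, against -2.81, -2.81, -2.84 and -2.84 in the controls, with no overlap. Read relative to the median shift, its call was lost with the 75th percentile of all probes and quantile normalisation. It was also lost on the unscaled signals and with the labelling and hybridisation spike-ins. The calls of miR-30a-5p and miR-30e-5p were both lost without control replicate 4, which left 1 of 5, and that of miR-30a-5p also without TSN replicate 2, 3 or 4 or control replicate 2 or 3.

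In the family of miR-148 and miR-152 the 3 tested members rose. miR-148a-3p (0.69), miR-148b-3p (0.60, adjusted p = 0.00348) and miR-152-3p (0.59, adjusted p = 0.0148, lost without TSN replicate 1) were well above background on 3, 3 and 2 of 4 control arrays. miR-148b-3p was at -2.86, -2.77, -3.08 and -3.03 in TSN, against -4.06, -3.20, -3.52 and -3.38 in the controls. The members passed the filter on their TSN arrays, so the count of 3 of 3 is a description only, and all 3 changes turned negative with normexp background correction.

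Among let-7 miRNAs, the largest family in many tissues, 0 of 9 rose and 1 fell. The median change was 0.10, but 0.31 without control replicate 4 and -0.03 without control replicate 1. let-7e-5p fell by 0.53 (adjusted p = 0.0465, lost in 5 of 8 fits that left out 1 array, those without TSN replicate 1, 3 or 4 or control replicate 2 or 4). let-7a-5p was at -1.04, -0.56, -1.15 and -0.78 in TSN, against -1.27, -0.87, -1.13 and 0.06 in the controls, where control replicate 4 was far above the others. Without it let-7d-5p (0.54) and let-7g-5p (0.37) passed as higher. The minor strand let-7d-3p, chosen after its values were seen, fell by 1.15 (SE 0.382, adjusted p = 0.0196). Of 6 tested miRNAs known from fibrosis, only miR-21a-5p fell (-0.65, adjusted p = 0.00842), at 2.60 ± 0.237 in TSN and 3.25 ± 0.399 in the controls. The antifibrotic miR-29a-3p (-0.01), miR-29b-3p (-0.35) and miR-29c-3p (-0.11) did not pass, nor did miR-199a-3p (-0.47) and miR-214-3p (0.17), though miR-29b-3p passed without TSN replicate 2 or control replicate 3. The probe of miR-199a-3p also matches miR-199b-3p.

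In 16 hairpins 2 mature strands were well above background on at least 1 array of each group. In the hairpin of miR-3102 both strands came from the 5′ arm, in the others from both arms. In 2 of the 16 the arms were called in opposite directions. These were miR-17, above, where the 5p signal may include miR-106a-5p, and miR-7687. miR-7687-5p was at 1.16 (adjusted p = 5.36e-05) and miR-7687-3p, at the floor on all TSN arrays, at -1.32 (adjusted p = 0.0319). These pairs were picked with their values in view.

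miRNAs with high miRBase numbers, most of them little studied entries from sequencing, are given here by number range, beside 15.1% higher and 31.8% lower over all measured miRNAs. Among those in the number range that holds miR-3960, 8 of 23 measured rose and 7 fell, with miR-3960, miR-3963 and miR-3102-5p (0.78, adjusted p = 0.00918) among the rises and miR-3473f (-1.23), miR-3095-3p (-1.19) and both arms of miR-3620 among the falls. miR-3620-5p, unlike its other arm, was clear of the floor, at -3.51, -3.19, -3.17 and -2.66 in TSN, against -1.78, -1.67, -1.69 and -1.64 in the controls (change -1.44, adjusted p = 3.16e-05). In the range that follows, 4 of 17 measured rose and 3 fell, the falls being miR-5126, which was at 3.34, 3.68, 3.53 and 3.74 in TSN, against 5.15, 4.88, 4.37 and 4.91 in the controls (change -1.26, adjusted p = 1.7e-06), miR-5113 (-1.23) and miR-6418-5p (-0.96). Of 31 measured 5p strands of the range that holds miR-6908-5p and miR-7084-5p, 5 rose, miR-6908-5p (0.66) among them, and 9 fell, miR-6937-5p (-1.32) among them, shares close to those over all measured miRNAs. Of the 3p strands of this range 6 were tested and 5 of these fell, but only 1, miR-7080-3p, was measured on all 8 arrays. Of the other falls, miR-6943-3p and miR-7055-3p were well above background on none of the 8 arrays and were tested through another day, and miR-7085-3p and miR-7022-3p were at the floor on every TSN array. Of 10 measured entries of the highest numbers 3 rose, miR-8117 (0.95), miR-8101 (0.48) and miR-7118-5p (0.48, lost without TSN replicate 1 or 4 or control replicate 4), and 1 fell, miR-7686-5p (-0.60). Of 8 tested miRNAs of the Sfmbt2 intron, a rodent cluster, 3 fell and 0 rose, beside 21.6% lower and 23.2% higher over all tested. Among them miR-669f-3p was at -0.84 (adjusted p = 0.00147).

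The base composition of the mature miRNA went along with the direction of the change. G and C made up a median of 64.3% of the bases in the 24 measured and matched miRNAs that rose (quartiles 61.2% and 70.35%), 50.0% in the 50 that fell (41.4% and 56.95%) and 54.5% in the 82 that did not pass. Of the 58 miRNAs with at least 60% G and C, 18 rose and 10 fell. Of the 21 under 40%, 0 rose and 9 fell. Between these, 4 rose and 15 fell of 39 from 40%, and 2 rose and 16 fell of 38 from 50%. Of the 76 entries numbered 2000 and above, with a median of 63.6% G and C, 19 rose and 20 fell. Of the 80 others, with a median of 45.5%, 5 rose and 30 fell. The median probe length was 14 bases for the rises and 17 for the falls. The parts of entry number and probe length were not tested. The miRNAs counted share the same 8 arrays, with the TSN arrays on 1 slide and the control arrays on another, and no test is given.

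**Figure D4:**
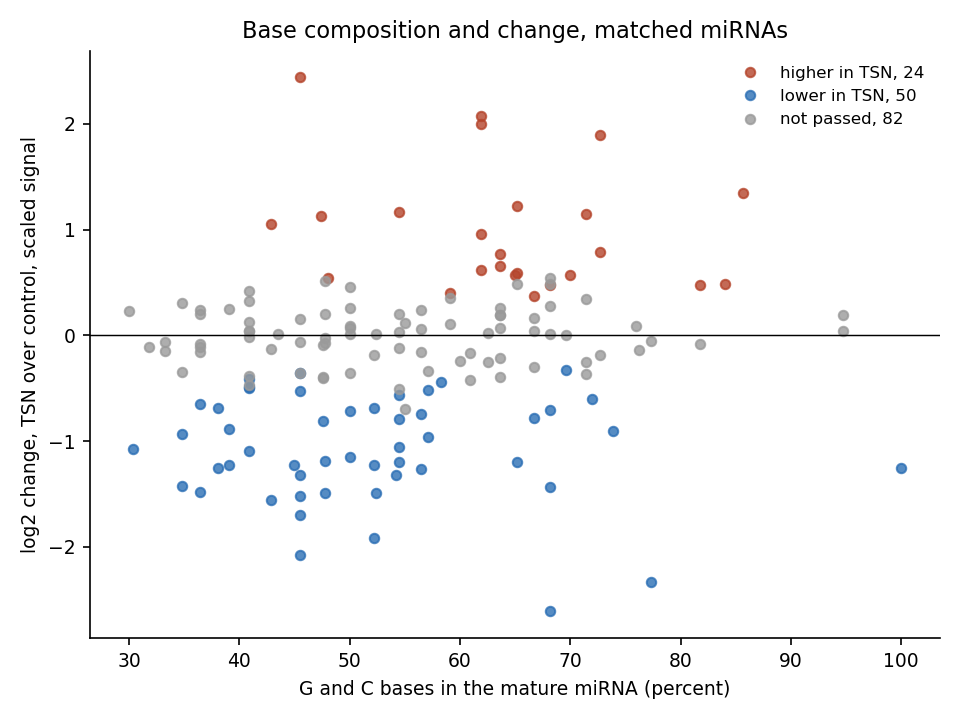
Percent of G and C bases in the mature miRNA against the change at day 21 (log2, TSN over control), for 156 measured miRNAs with a RefSeq sequence. Rises lie mostly at 60% and above, where 18 of the 24 were found, and no miRNA under 40% rose.

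Whether the difference at day 21 was that of days 3 and 9 was asked with interaction terms of the same fit. The control arrays of day 21 were on another slide and scan than those of days 3 and 9, which shared theirs. Day and control slide therefore cannot be told apart in these terms. The TSN arrays of days 9 and 21 shared a slide, and those of day 3 were on another. Against day 9 the TSN effect differed for 154 of 444 miRNAs (34.7%), 102 with a more positive and 52 with a more negative effect at day 21, and against day 3 for 58 (13.1%), 18 more positive and 40 more negative. The count against day 3 was 29 without TSN replicate 3, 38 without control replicate 2 and 31 without control replicate 4. The brightness ratio of TSN to control arrays was 7.23 at day 3, 11.8 at day 9 and 5.87 at day 21, and its part in these differences was not tested. The median difference between the effects of days 21 and 9 was 0.38 over the 157 miRNAs measured on all 16 arrays of those days. The falls of miR-883a-5p, miR-882, miR-3099-3p, miR-7084-5p, miR-6957-5p and miR-300-5p were smaller at day 21 than at day 9, by 2.40, 2.29, 2.05, 1.70, 2.08 and 2.12, in the order of the brightness ratios of the 3 days (miR-883a-5p was at -3.05, -4.10 and -1.70 at days 3, 9 and 21).

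The TSN effect also differed between the days for named miRNAs of known function, with the same limit on the control slides. miR-106b-5p was 1.37, 2.37 and 1.05 higher in TSN at days 3, 9 and 21, and its effect at day 21 was 1.32 below that of day 9 (SE 0.267, adjusted p = 0.00128) and not different from that of day 3 (-0.32, adjusted p = 0.496). miR-25-3p, from the same transcript, had effects of 0.05, 1.41 and -0.36, and day 21 was 1.77 below day 9. miR-15a-5p (0.35, 1.32 and -0.38), miR-15b-5p (0.27, 0.92 and -0.42), miR-92a-3p (0.44, 1.01 and -0.34) and miR-486a-5p (-0.63, 1.28 and -0.48) ran the same way, with day 21 below day 9 by 1.34 to 1.77. miR-5100 (2.06, 0.70 and 2.07), miR-3963 (1.18, -0.56 and 1.13) and miR-6995-5p (0.24, -1.07 and 0.24) ran opposite to these.

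Other effects were compared with each earlier day in turn. miR-140-5p had effects of -1.16, -1.18 and -1.86, and its fall at day 21 exceeded that of day 9 by 0.68 (adjusted p = 0.0121) and that of day 3 by 0.70 (adjusted p = 0.0246). miR-22-3p (-1.36, -1.26 and -2.08) exceeded day 9 by 0.81 (adjusted p = 0.0234), while the difference to day 3 did not pass (adjusted p = 0.0785). miR-223-3p had effects of 0.03, -0.47 and -1.09, with day 21 below day 3 by 1.13. let-7i-5p (1.02, 0.72 and 0.04), miR-130b-3p (1.09, 0.59 and -0.07) and miR-128-3p (0.96, 0.37 and -0.40) were below both days. miR-494-3p (1.57, 1.49 and 2.44) did not pass against either (adjusted p = 0.173 and 0.0791).

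**Figure D5:**
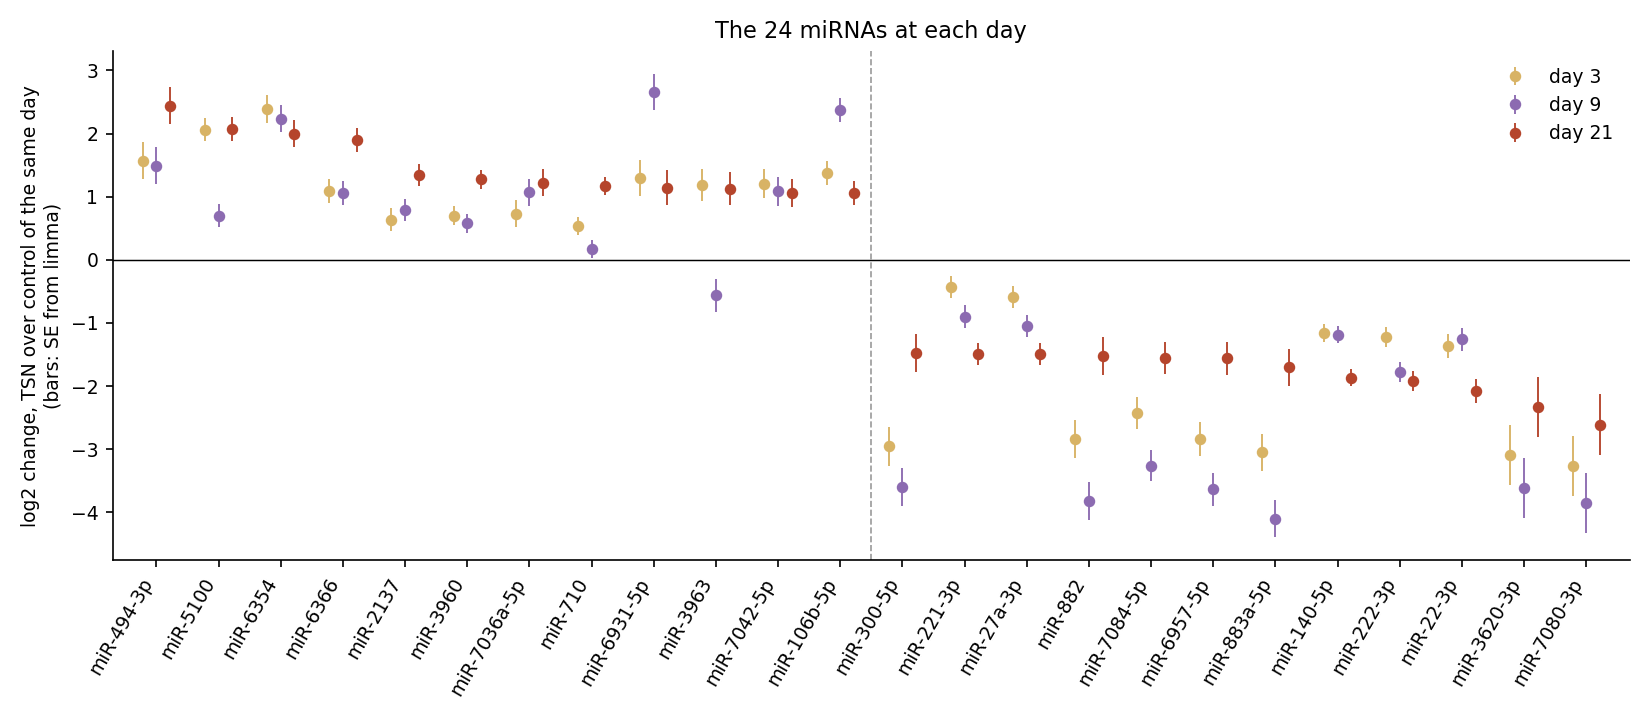
Change (log2, TSN over control of the same day, bars are SE from limma) at days 3, 9 and 21 of the 12 largest rises and 12 largest falls of day 21. miR-22-3p and miR-140-5p lie lowest at day 21, while miR-882 and miR-883a-5p lie lowest at day 9 and highest at day 21.

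The call rested on 1 probe per miRNA. Of the 84 measured and called miRNAs, 57 had another probe well above background on all 8 arrays, and for 56 of these every such probe changed the same way. For miR-494-3p the other probe changed by 2.95, for miR-22-3p by -1.95 and for miR-106b-5p by 1.16.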

How the data were processed

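Serum exosome miRNA was labelled with Cy3 and hybridised to 1-colour Agilent mouse miRNA arrays, 24 arrays in 6 groups of 4. The deposited intensity values are background-subtracted processed signals with flags, made by Feature Extraction 10.7.1.1 as the file headers state. The authors also deposited a table of 1882 entries whose log2 scale, centring and direction are not stated. Its day 21 columns, with medians of 4.37 to 4.40, correlated with the log2 signals of their own arrays at 0.968 to 0.982, and it served as an alternative.

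Control spots and outlier spots were left out and spots averaged per probe. Signals were scaled within each array to the 75th percentile of 261 probes detected throughout the 24 arrays, floored at 0.0135 and log2-transformed. The probe with the highest mean stood for a miRNA. A miRNA was tested if some group had it well above background on every array (444 of 1881). limma 3.58.1 (R 4.3.3, prior df 1.27) was fitted over the 24 arrays and 6 groups, with Benjamini-Hochberg adjustment at 0.05, and was tested on simulated data. A bound is given where no control array was well above background. Named are the 12 largest rises and falls among called miRNAs measured on all 8 arrays with groups that did not overlap. The 6 largest bounds and the members of lists given by name are named too. From lists by name pattern or miRBase number come the measured miRNAs with the smallest adjusted p in each direction. The interaction terms add those with the smallest adjusted p in each direction, among miRNAs measured on all arrays compared. Members and lists were chosen with earlier results of these data known. Sequences are from RefSeq and matched 373 of the 444. The number of arrays limits the precision.

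Replicate numbers follow the slide position. Same-numbered TSN and control arrays of day 21 deviated together with correlations of -0.06, 0.23, 0.43 and -0.11, so they were not taken as pairs. Alternatives were 6 other scalings or backgrounds, the authors' table, other probe summaries, floors, filters, fits and leaving out each array.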

Additional observations from a re-analysis of the deposited data

Results flagged for a closer look

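Among 256 groups of 4 values, of 122 named miRNAs and 6 array measures, 13 held an array far from the other 3 by Dixon's test. Chance alone gives this in about 1 in 20 groups. All 13 were groups of miRNA values. In 3 of these, miR-3620-3p, miR-7080-3p and miR-23a-5p, the other arrays were at the floor, so any value off it had to be far and the test says nothing. TSN replicate 2 stood high for miR-130b-3p (-1.29), miR-21a-5p (2.96), miR-3620-3p (-6.02) and miR-7080-3p (-5.89) and low for miR-8090 (-4.07). TSN replicate 3 stood low for miR-17-5p (-3.55) and miR-451a (5.21), and TSN replicate 1 low for miR-6931-5p (0.00). Control replicate 4 stood high for miR-144-3p (1.14), miR-195a-5p (-3.52) and miR-451a (6.41) and low for miR-6354 (-2.53), and control replicate 1 stood high for miR-23a-5p (-6.04).

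The TSN effect at day 21 differed from that at day 9 by the interaction term of limma for 21 named miRNAs measured on all 16 arrays. The control arrays of these 2 days were on different slides, which cannot be told apart from the day. It was higher at day 21 for miR-883a-5p (2.40), miR-882 (2.29), miR-3099-3p (2.05), miR-7084-5p (1.70), miR-3963 (1.69), miR-5100 (1.37), miR-6995-5p (1.31), miR-6366 (0.84) and miR-3960 (0.69). It was lower for miR-25-3p (-1.77), miR-486a-5p (-1.77), miR-15a-5p (-1.70), miR-6931-5p (-1.51), miR-92a-3p (-1.35), miR-15b-5p (-1.34), miR-106b-5p (-1.32), miR-22-3p (-0.81), miR-128-3p (-0.77), let-7i-5p (-0.68), miR-140-5p (-0.68) and miR-130b-3p (-0.65).

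Against day 3 the effect differed for 17. It was higher at day 21 for miR-300-5p (1.47), miR-883a-5p (1.34), miR-6957-5p (1.27), miR-882 (1.32), miR-710 (0.63), miR-3099-3p (1.22) and miR-3102-5p (1.00). It was lower for miR-128-3p (-1.36), miR-130a-3p (-1.31), miR-130b-3p (-1.16), miR-223-3p (-1.13), miR-221-3p (-1.06), let-7i-5p (-0.98), miR-27a-3p (-0.90), miR-92a-3p (-0.78), miR-140-5p (-0.70) and miR-222-3p (-0.69).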

How the results depend on the processing

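The alternatives were tried one at a time; the authors' deposited values replace signal, summary and normalisation together. With the 75th percentile of all probes 44 miRNAs fell. With quantile normalisation 172 rose and 51 fell, and 34 effects differed from day 3. On unscaled signals 411 rose and 1 fell, with 51 effects differing from day 9 and 7 from day 3. With the labelling spike-ins 233 rose and 13 fell (28 from day 3), and with the hybridisation spike-ins 415 rose and 0 fell (30 from day 9, 7 from day 3; 0 fell at an unadjusted p under 0.05 too). The authors' deposited values gave 32 from day 3. With normexp 17 rose and 345 fell, with 46 from day 9 and 0 from day 3 (32 at an unadjusted p under 0.05). The software's total gene signal gave 60 falls, 71 from day 9 and 17 from day 3. Testing only measured miRNAs, which leaves fewer to test, gave 26 rises, 54 falls and 95 from day 9. Leaving out 1 array gave 87 to 99 rises, 75 to 98 falls, 124 to 166 effects differing from day 9 and 29 to 70 from day 3, a brightness ratio of 4.11 to 8.03 and 157 to 213 more miRNAs well above background in TSN. With the replicate number as a block, which the labels do not define as a pairing, 99 rose and 91 fell.

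The median change of the measured miRNAs moved by 0.32 (all probes), 0.10 (quantile), 2.55 (unscaled), 0.81 (labelling spike-ins), 2.69 (hybridisation spike-ins) and -0.40 (normexp), and changes of single miRNAs under these are given relative to it. So read, 17 tested miRNAs rose and 179 fell on unscaled signals (6 and 23 of the measured). Reversed were let-7e-5p (0.11) and miR-7118-5p (-0.23) with quantile normalisation, miR-134-5p (-0.81), miR-152-3p (-0.27) and miR-98-5p (-0.77) on unscaled signals, and the same 3 with the hybridisation spike-ins (-0.89, -0.31 and -0.84). miR-451a was at 1.67 in the authors' deposited values. With total gene signal miR-301b-3p was at 0.41, miR-7080-3p at 0.41 and miR-710 at -5.34. With normexp, reversed to negative were miR-98-5p (-1.37), miR-101a-3p (-0.87), miR-134-5p (-1.39), miR-143-3p (-0.44), miR-148a-3p (-0.12), miR-148b-3p (-0.36), miR-152-3p (-1.13), miR-17-5p (-0.43), miR-23a-5p (-0.65), miR-6402 (-0.17), miR-6934-5p (-0.57), miR-8090 (-0.16) and miR-8093 (-0.94), and to positive miR-130a-3p (0.10), miR-15b-5p (0.19), miR-21a-5p (0.0495), miR-23a-3p (0.57) and miR-29a-3p (0.52). The cause was not tested. The dim control arrays limit what could be measured in both groups.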

Other observations

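The letters AUCCCA were chosen after the values were seen, as a string that 3 of the rises share. That these 3 rose was thus fixed by the choice and is a description only. The letters stand in 7 of 1679 mature miRNAs of the RefSeq table (0.417%), read on the miRNA's own strand. Of the 373 tested miRNAs with a sequence, 4 hold them. miR-3968, miR-5100 and miR-3963 rose, with changes of 3.45, 2.07 and 1.13, the first seen on no control array, and miR-191-5p, at 0.30, did not pass. In miR-3968 the letters run past the end of the seed, as its sequence shows.
miR-3968, chr11:115447969-115447989, minus strand: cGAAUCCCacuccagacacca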
